A study of Mus musculus with 6 samples.

Results

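The genes described here were highest in CDH5+ cells on day 8 of the reprogramming of mouse fibroblasts to blood, above both the starting fibroblasts and the c-KIT+ cells of day 12. They were chosen from the measured values by a fixed rule. A protein-coding gene entered when its CDH5+ mean was at least 7 on the log2 scale, was at least 1 above the untreated mean and at least 1 above the c-KIT+ mean, and when its lower CDH5+ array lay above all 4 other arrays. Of 19988 protein-coding genes among 26323 rows, 60 met these limits. Cdh5 itself and a set of well-known endothelial and SoxF genes and the Gimap genes were then left out by name, which removed 13 of the 60, and 47 genes remained. The number depended on single arrays: without the first CDH5+ array the same rule found 81 genes, and without any 1 of the other arrays between 44 and 67.

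Transcripts were read on Mouse Exon 1.0 ST arrays, whose probe sets lie in single exons, with 2 arrays per group. Untreated MEFs were wild-type mouse embryonic fibroblasts from embryos that received no virus. CDH5+ cells were sorted from the same kind of MEFs 8 days after lentiviral transduction with 5 transcription factors (TFs), ERG, GATA2, LMO2, RUNX1c and SCL, and c-KIT+ cells were sorted 12 days after transduction. The MEFs had been depleted of cells positive for CD41, CD31, c-KIT or CD45 before infection, and the transduced cultures were kept in a hematopoietic medium with cytokines. The sorted groups therefore differ from untreated MEFs in virus, medium, time and sort together. CDH5+ and c-KIT+ cells differ from each other in sort and day together, so a lower c-KIT+ value is not shown to be a fall over time. CDH5 is VE-cadherin, which joins endothelial cells at adherens junctions. The tyrosine kinase c-KIT binds stem cell factor and marks blood progenitors.

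During development, blood cells arise from hemogenic endothelium, a specialised endothelium that passes through an endothelial to hematopoietic transition. Cells in this transition carry junction proteins, vascular receptors and signalling adaptors of endothelium, lose them as they round up, and take on blood cell genes. Endothelial cells also display adhesion receptors such as selectins and ICAM1 and release chemokines that recruit leukocytes.

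The gene of the sorted protein was highest in the sorted cells. Cdh5 read 5.26 and 5.01 in untreated MEFs, 10.16 and 10.95 in CDH5+ cells and 7.20 and 7.49 in c-KIT+ cells. Kit read 4.54 and 4.73, 6.98 and 7.30, and 8.19 and 8.33 in the same order, so it was already above untreated MEFs at day 8. Transcripts of blood cells were also present in CDH5+ cells. Mpo, the myeloperoxidase of granulocytes, read 10.95 and 11.29 in them, against 4.65 and 4.83 in untreated MEFs, and a list of leukocyte genes had a median of 6.48 and 7.24, against 4.50 and 4.51. The 95th percentile of 792 olfactory receptor genes (5.95 to 6.04) serves here as the background level of an array. Ptprc, which encodes CD45, and the macrophage genes Csf1r and Emr1 stayed below it on all 6 arrays, which does not show that they are absent. These genes do not stand for their lists. Of 52 macrophage and monocyte genes, limma (adjusted p under 0.05) called 9 higher and 0 lower in CDH5+ cells than in untreated MEFs. It called 13 higher and 0 lower in c-KIT+ cells. Over all rows the shares were 0.965% and 0.213%, and 3.24% and 2.72%. Emr1 was 1.23 higher in c-KIT+ cells (limma adjusted p = 0.0379). Untreated replicate 2 stood apart from replicate 1, with a cell cycle median of 8.09 against 5.50, Dcn at 7.82 against 11.86 and Krt18 at 8.69 against 5.06. The CDH5+ arrays differed in fibroblast transcripts, with a median of 8.60 on replicate 1 and 6.58 on replicate 2. In such bulk samples fewer cells of a type and less RNA per cell cannot be told apart.

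The promoters of the genes were searched for cores bound by the transduced factors, of which ERG is an ETS factor. A SOX core was added for SoxF factors, which were not transduced. The shared peak of the genes was asked by the rule and gives no ground to expect a shared regulator. RefSeq promoter windows of 300 bases (250 before to 50 after an annotated start, build GRCm38.p6) were at hand for 31 of the 47 genes, 41 windows in all. The ETS core GGAAGT, read on both strands, was in 39% of these windows, against 23.8% of all 32851 windows and 24.8% of those of coding genes. By gene, 15 of the 31 held it in at least 1 window, a count with no share over all genes to set beside it. The GATA core AGATAA was in 2.44% of the genes' windows, against 11.2% of all windows and 9.65% of those of coding genes. The 95% intervals of the genes' ETS and GATA shares, 24.2% to 55.5% and 0.06% to 12.9%, both held the coding share. The E-box CAGCTG, a sequence that SCL binds with a partner, was in 22%, against 16.3% of all windows and 15.6% of coding ones. In the same order the E-box CAGATG was in 7.32%, 17.2% and 14.6%, and the RUNX core TGTGGT in 14.6%, 16.8% and 15%. The SOX core ACAATG was in 9.76%, 12.6% and 11%. In the 41 windows 1 match overlapped a match of another motif. These are counts of letters in short windows, several windows belong to 1 gene, and a match is not a binding site. Shown are the windows with 2 ETS cores, of Egfl7 (chr2:26580833-26581132, plus strand, cores beginning at -217 and -160 from the start) and Gpr116 (named Adgrf5 in RefSeq, chr17:43389216-43389515, plus strand, -76 and -36), and the window of Cd38 (chr5:43868559-43868858, plus strand), which alone held a GATA core, at -31, beside an ETS core at -132. ETS and GATA cores are in capitals, on either strand.
Egfl7: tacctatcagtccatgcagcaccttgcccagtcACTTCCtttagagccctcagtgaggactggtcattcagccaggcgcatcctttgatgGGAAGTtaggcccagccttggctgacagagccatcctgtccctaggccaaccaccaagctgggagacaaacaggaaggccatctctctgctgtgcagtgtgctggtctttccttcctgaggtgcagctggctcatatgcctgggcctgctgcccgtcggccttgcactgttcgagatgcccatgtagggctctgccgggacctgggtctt
Gpr116: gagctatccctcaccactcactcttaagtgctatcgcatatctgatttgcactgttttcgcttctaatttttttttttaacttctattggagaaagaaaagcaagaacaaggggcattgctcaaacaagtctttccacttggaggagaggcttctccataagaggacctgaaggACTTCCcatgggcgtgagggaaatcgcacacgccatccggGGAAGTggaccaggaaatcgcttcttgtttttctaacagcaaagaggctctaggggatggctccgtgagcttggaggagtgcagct
Cd38: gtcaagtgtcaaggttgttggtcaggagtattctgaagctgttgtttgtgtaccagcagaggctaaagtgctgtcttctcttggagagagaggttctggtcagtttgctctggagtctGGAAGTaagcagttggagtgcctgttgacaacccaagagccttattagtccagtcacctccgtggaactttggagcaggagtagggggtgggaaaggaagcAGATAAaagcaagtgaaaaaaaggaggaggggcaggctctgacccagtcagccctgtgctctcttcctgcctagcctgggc

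Of the role lists, that of endothelial surface and junction genes held the most members, 13 of its 55 measured genes. The rule kept 47 of all 19988 protein-coding genes, and 14 of the 47 stood in no list. The lists were written with earlier results of these data known, so the sizes of the groups are a description. Egfl7, a secreted protein of the endothelial matrix, read 5.51 and 5.81 in untreated MEFs, 8.15 and 9.17 in CDH5+ cells and 6.42 and 6.23 in c-KIT+ cells. Its CDH5+ mean was 2.999 above the untreated mean and its c-KIT+ mean was -2.33 from the CDH5+ mean, both on the log2 scale. The 2 ETS cores of its promoter are in the first sequence above. Tspan18, a tetraspanin, read 5.25 and 4.83, 6.96 and 7.56, and 4.71 and 4.88 in untreated MEFs, CDH5+ cells and c-KIT+ cells, and another tetraspanin gene, Tspan7, read 5.91 and 6.46, 7.77 and 8.34, and 4.75 and 5.19. The untreated and c-KIT+ values of Tspan18 were all within array background, so their order carries no information. For Tspan7 both c-KIT+ arrays lay below both untreated arrays and within background. Robo4, a guidance receptor that keeps vessels stable, read 5.13 and 5.14 in untreated MEFs, 6.83 and 7.62 in CDH5+ cells and 5.45 and 5.56 in c-KIT+ cells.

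That both CDH5+ arrays lay above the other 4, as in 5.94% of all rows, was asked by the rule, and what differed among the surface genes was where the other groups lay. Plvap, which builds the diaphragms of endothelial fenestrae and caveolae, read 6.07 and 5.90 in untreated MEFs, 7.17 and 8.19 in CDH5+ cells and 5.85 and 6.06 in c-KIT+ cells, so that untreated and c-KIT+ arrays interleaved. Clec14a, a C-type lectin of endothelium, read 6.78 and 5.88, 8.00 and 7.79, and 5.27 and 5.64 in the same order. Gpr116, an adhesion receptor coupled to G proteins, read 6.19 and 5.03 in untreated MEFs, 6.68 and 7.55 in CDH5+ cells and 4.40 and 4.59 in c-KIT+ cells. Both genes were lowest in c-KIT+ cells. Their c-KIT+ arrays and untreated replicate 2 were within background, so that order rests on untreated replicate 1. The lower CDH5+ array of Gpr116 lay only 0.49 above the higher untreated array. Its height, the CDH5+ mean minus the higher of the other means, was 1.51, and 0.93 without untreated replicate 2. S1pr1, the receptor through which sphingosine 1-phosphate tightens junctions and guides lymphocytes, was already well expressed in untreated MEFs, at 7.88 and 8.22, and read 9.34 and 9.77 in CDH5+ cells and 7.20 and 7.38 in c-KIT+ cells.

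Adhesion receptors for leukocytes and platelets were among the members. Selp, which encodes P-selectin, a rolling receptor stored in granules of endothelial cells and platelets, read 4.30 and 4.31 in untreated MEFs, 7.62 and 7.75 in CDH5+ cells and 6.60 and 6.67 in c-KIT+ cells. All 3 groups were separate, and the c-KIT+ arrays lay nearer to the CDH5+ arrays than to the untreated arrays. F11r, the junctional adhesion molecule JAM-A, read 6.79 and 7.82, 9.23 and 9.79, and 8.36 and 8.46 in untreated MEFs, CDH5+ cells and c-KIT+ cells. Icam1, the integrin ligand ICAM1, read 6.84 and 5.70, 7.79 and 7.43, and 6.21 and 6.46. F11r kept the order of Selp, while the c-KIT+ arrays of Icam1 fell between its untreated arrays. Procr, the endothelial protein C receptor, and Tmem204, a transmembrane protein of endothelium, had CDH5+ means 1.21 and 1.08 above untreated MEFs.

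Signalling adaptors gave 5 members. She, an adaptor with an SH2 domain, read 5.04 and 5.48 in untreated MEFs, 6.82 and 7.23 in CDH5+ cells and 5.24 and 5.36 in c-KIT+ cells. Rasgrp3, a guanine nucleotide exchange factor for Ras, read 5.93 and 5.69, 6.97 and 8.09, and 4.74 and 4.97 in these groups. Rasip1, a Ras-interacting protein needed for vascular lumens in mice, read 5.76 and 5.14, 7.04 and 7.93, and 5.89 and 6.12. The untreated and c-KIT+ values of Rasgrp3 were all within background, so their order carries no information. For Rasip1 the c-KIT+ arrays were above both untreated arrays, but only c-KIT+ replicate 2 of these was above background. Stap2, an adaptor of cytokine and tyrosine kinase signalling, read 4.87 and 4.97 in untreated MEFs, 7.16 and 8.20 in CDH5+ cells and 6.53 and 6.65 in c-KIT+ cells. Dock9, an exchange factor for Cdc42, sat nearest the limit of all members, with its c-KIT+ mean -1.02 from its CDH5+ mean.

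Bcl6b, a repressor related to BCL6, was the 1 member among the 127 genes of the transcription factor list. It read 4.18 and 4.42 in untreated MEFs, 6.83 and 7.84 in CDH5+ cells and 4.99 and 4.76 in c-KIT+ cells. Its untreated and c-KIT+ values all lay within array background. The factors delivered by the viruses were above background in c-KIT+ cells, unlike Bcl6b. Erg, Gata2, Lmo2 and Tal1, which encodes SCL, had c-KIT+ means of 7.36, 9.20, 8.15 and 8.85 and untreated means of 5.15, 5.68, 4.95 and 5.82. Their CDH5+ means were 7.87, 8.42, 7.56 and 8.25. Erg was thus highest in CDH5+ cells, at 7.69 and 8.05, against 7.26 and 7.46 in c-KIT+ cells. Gata2, Lmo2 and Tal1 were highest in c-KIT+ cells. Runx1 was already expressed in untreated MEFs, with a c-KIT+ mean of 9.54 and an untreated mean of 8.46. Probe sets do not separate a vector transcript from the cell's own. Ets2, also an ETS factor, missed the limit, with 6.76 and 7.56, 8.15 and 8.47, and 7.28 and 7.51 in untreated MEFs, CDH5+ cells and c-KIT+ cells.

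Guidance and vessel matrix genes were few. Plxnd1, the plexin that receives semaphorin signals in vessels, read 6.88 and 6.51 in untreated MEFs, 7.60 and 8.87 in CDH5+ cells and 6.60 and 6.55 in c-KIT+ cells. Its 2 CDH5+ arrays were 1.28 apart, and without CDH5+ replicate 2 its height above the other groups was 0.91. Efna1, the ephrin A1 ligand, read 5.83 and 5.82, 6.70 and 7.86, and 5.17 and 5.19. In the vessel matrix list the 3 members were Thsd1, a thrombospondin domain protein, at 6.37 and 6.67, 7.69 and 8.26, and 6.39 and 6.37; Sparcl1, a secreted relative of osteonectin, at 5.86 and 5.90, 7.51 and 7.005, and 5.05 and 4.59; and Adamts4, a proteoglycan-cleaving protease, at 6.35 and 6.29, 6.84 and 8.10, and 5.15 and 5.26. For Adamts4 both c-KIT+ arrays were below both untreated arrays and within background. The untreated and c-KIT+ values of Sparcl1 were all within background, so their order carries no information. Of the 40 vessel matrix genes measured, the test called none higher and 1 lower in CDH5+ cells against untreated MEFs, and 1 higher and 11 lower in c-KIT+ cells against untreated MEFs. Over all rows the test called 0.965% higher and 0.213% lower in the first comparison, and 3.24% higher and 2.72% lower in the second.

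Chemokines and a cytokine made up a further 4. Ccl2, which recruits monocytes, read 9.55 and 9.45 in untreated MEFs, 11.14 and 11.10 in CDH5+ cells and 9.11 and 9.50 in c-KIT+ cells, and Cxcl1, which recruits neutrophils, read 9.06 and 8.14, 10.06 and 9.41, and 8.40 and 8.52. Both were therefore strongly expressed by untreated MEFs. Ccl4, a chemokine of activated leukocytes, was at background in untreated MEFs, at 4.66 and 4.81, and read 7.81 and 8.63 in CDH5+ cells and 6.59 and 6.71 in c-KIT+ cells. Il6, the inflammatory cytokine, read 7.37 and 5.42, 7.78 and 8.38, and 7.15 and 6.85, with untreated arrays that span the c-KIT+ values. Among the other 67 genes of this list the test called 5 higher and none lower in CDH5+ cells against untreated MEFs, and 13 higher and 3 lower in c-KIT+ cells against untreated MEFs. The shares over all rows were 0.965% and 0.213%, and 3.24% and 2.72%. The 6 of them with a CDH5+ mean of at least 7 and a gain of at least 1 over untreated MEFs had a higher mean still in c-KIT+ cells. Ccl3, a chemokine closely related to Ccl4, read 4.46 and 3.70 in untreated MEFs, 6.38 and 8.39 in CDH5+ cells and 9.89 and 9.20 in c-KIT+ cells. A list of macrophage and monocyte genes had medians of 5.43 and 5.56 in CDH5+ cells, against 4.68 and 4.43 in untreated MEFs, and the part of such cells in the chemokine values was not tested.

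The gene with the greatest height belonged to none of these groups. Scn3b, a beta subunit of voltage-gated sodium channels, read 4.63 and 4.13 in untreated MEFs, 7.26 and 7.50 in CDH5+ cells and 4.09 and 4.40 in c-KIT+ cells, a height of 3.004 with the untreated and c-KIT+ arrays all within background. Psg22, a pregnancy-specific glycoprotein, read 3.21 and 3.06, 6.88 and 7.83, and 4.19 and 4.61 in the same order. Car8, a carbonic anhydrase relative that lacks the enzyme activity, read 4.84 and 4.85, 7.69 and 7.95, and 5.89 and 6.30. All 3 genes were within background in untreated MEFs, and both c-KIT+ arrays lay above both untreated arrays for Psg22 and Car8 but not for Scn3b. The c-KIT+ arrays of Psg22 were also within background, so that order carries no information for it. For Car8 c-KIT+ replicate 1 was within background. Cd38, the NAD-consuming ectoenzyme whose promoter is the third sequence above, read 6.31 and 5.78 in untreated MEFs, 8.14 and 8.61 in CDH5+ cells and 6.26 and 6.47 in c-KIT+ cells. Ltc4s, the synthase of leukotriene C4, read 6.19 and 5.34, 7.76 and 8.37, and 6.11 and 6.53, and Pcdh17, a protocadherin, read 4.76 and 5.28, 6.64 and 8.41, and 5.30 and 5.30. Mest, an imprinted gene of mesoderm, read 8.21 and 7.60, 9.23 and 9.46, and 6.66 and 6.83, so both c-KIT+ arrays lay below both untreated arrays. The heights of Dock4, an exchange factor for Rac and Rap, Wfdc18, Clca1, Trp53i11 and Krtap19-9b were 1.06 to 1.18.

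**Figure D1:**
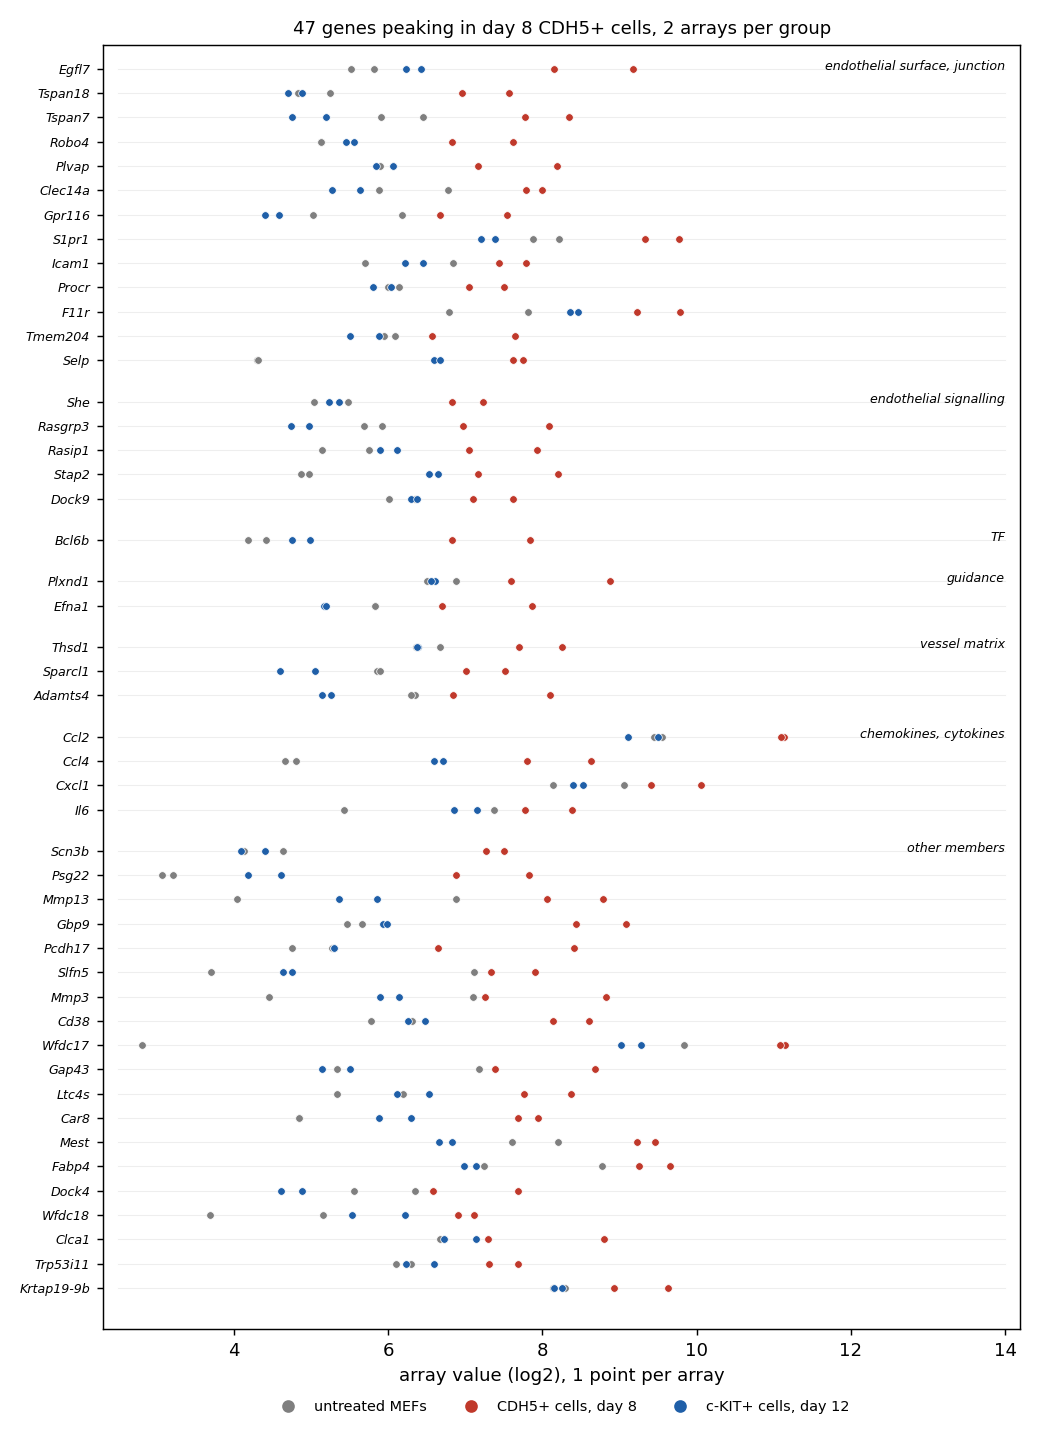
Array values on the log2 scale of the 47 genes, ordered by role and then by height, with 1 point per array and 2 arrays each for untreated MEFs (grey), CDH5+ cells (red) and c-KIT+ cells (blue). Both red points lie to the right of the other 4 in each row, as the rule required, whereas grey and blue points change order from gene to gene.

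A further set was uneven among untreated MEFs. In 11 of the 47 genes the untreated arrays were more than 1 apart. Wfdc17, a WAP domain protein of activated macrophages, read 9.83 and 2.81 in untreated MEFs, 11.15 and 11.08 in CDH5+ cells and 9.01 and 9.28 in c-KIT+ cells. The matrix proteases Mmp13 and Mmp3 showed the same tilt, with Mmp13 at 6.87 and 4.04, 8.78 and 8.05, and 5.86 and 5.36, and Mmp3, a gene of the fibroblast list, at 7.10 and 4.46, 8.82 and 7.26, and 6.15 and 5.89. Slfn5, an interferon-inducible Schlafen gene, read 7.11 and 3.71, 7.90 and 7.34, and 4.75 and 4.64. In each of these 4 genes untreated replicate 1 was the high array, and without replicate 2 the heights of Slfn5 and Mmp3 were 0.51 and 0.93. Gap43, a growth cone protein, had the opposite tilt, at 5.33 and 7.18 in untreated MEFs, 7.39 and 8.68 in CDH5+ cells and 5.14 and 5.50 in c-KIT+ cells, and its height was 0.86 without untreated replicate 1. Fabp4, a fatty acid carrier of adipocytes and endothelium, was also uneven, at 8.78 and 7.24 in untreated MEFs, 9.25 and 9.65 in CDH5+ cells and 6.98 and 7.14 in c-KIT+ cells.

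Interferon-inducible genes were often highest in CDH5+ cells, mostly at low levels. Gbp9, a guanylate-binding protein of the interferon-inducible GTPases, read 5.47 and 5.66 in untreated MEFs, 8.44 and 9.08 in CDH5+ cells and 5.93 and 5.99 in c-KIT+ cells. In the interferon response list, which holds Slfn5 but not Gbp9, 35 of the other 53 genes (66%) had their highest mean in CDH5+ cells, against 21.9% of all rows, and 40 of the 53 had a CDH5+ mean under 7. The test called 3 of the 54 list genes higher and none lower in CDH5+ cells against untreated MEFs, where 0.965% and 0.213% of all rows were called, and the list's median difference was 0.72, against -0.07 over all rows. Rsad2, the antiviral protein viperin, read 4.25 and 3.998, 5.81 and 5.78, and 4.43 and 4.75, all within background, and Bst2, the virus tether tetherin, read 8.35 and 7.86, 10.47 and 10.16, and 9.17 and 9.54. Bst2 was the gene nearest to the limit from outside, with a c-KIT+ mean -0.96 from its CDH5+ mean. Only 7 of the 54 genes were higher on CDH5+ replicate 2 than on replicate 1, and the list's CDH5+ medians were 6.08 and 5.65. The untreated arrays had the same tilt, with 7 of the 54 higher on replicate 2 and medians of 5.19 and 4.71.

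Other genes of the endothelial lists missed the rule at different limits. Of the 42 surface and junction genes outside the rule, 25 had a CDH5+ mean under 7, and 9 gained less than 1 over untreated MEFs. The other 8 gained at least 1, but their c-KIT+ mean was less than 1 below the CDH5+ mean, or above it. Pecam1, the adhesion protein CD31, read 4.11 and 4.41 in untreated MEFs, 7.24 and 8.55 in CDH5+ cells and 8.00 and 8.16 in c-KIT+ cells. Cd93, a C-type lectin receptor, read 4.44 and 3.46, 8.97 and 9.83, and 9.21 and 9.24, and Cd34, the sialomucin of progenitors and endothelium, read 7.50 and 6.06, 9.42 and 9.88, and 8.89 and 9.002. These 3 of the 8 genes are shared by endothelium and blood progenitors, and their c-KIT+ arrays were above both untreated arrays. So were those of the rest of the 8 except Clec2d, at 8.54 and 8.39 in c-KIT+ cells, below untreated replicate 1 (9.05). Whether such sharing bears on membership was not tested. Of these 42 genes the test called 3 higher and none lower in CDH5+ cells against untreated MEFs, and 3 higher and 5 lower in c-KIT+ cells against the same MEFs. Of all rows 0.965% and 0.213% were called in the first comparison and 3.24% and 2.72% in the second. Of the 34 signalling adaptors outside the rule, 21 had their highest mean in CDH5+ cells and 23 had a CDH5+ mean under 7. The 13 genes that met the limits but were left out by name, such as Lyve1, Aplnr and Tek, had a median height of 2.33, against 1.54 for the members.

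**Figure D2:**
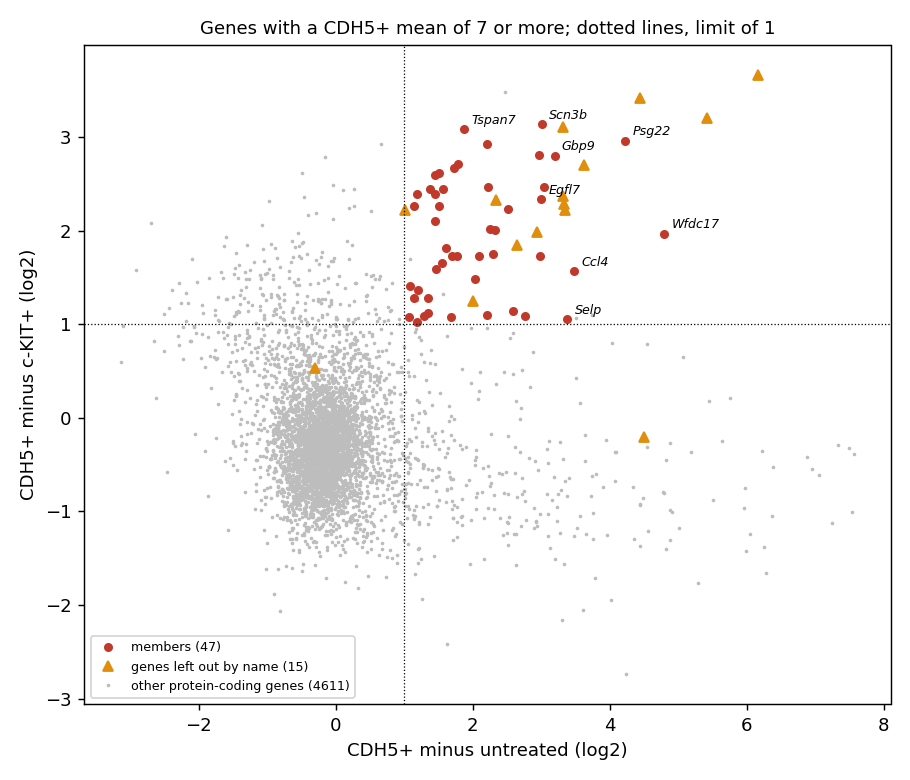
Difference between CDH5+ cells and untreated MEFs (x axis, log2) and between CDH5+ and c-KIT+ cells (y axis, log2) for the protein-coding genes with a CDH5+ mean of at least 7, with the 47 members in red, 15 genes left out by name as triangles and the other 4611 genes in grey. The members fill the upper right corner by the rule, and genes with the greatest gains over untreated MEFs mostly lie below the line at 1, with Wfdc17 (4.80) and Psg22 (4.22) the farthest right among the members.

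The contrasts that chose the genes are given as description. With limma and a Benjamini-Hochberg adjusted p under 0.05 over all rows, 14 of the 47 were called higher in CDH5+ cells against untreated MEFs, where 0.965% of all rows were. They were Selp, Car8, Psg22, Gbp9, Scn3b, Ccl4, Bcl6b, Cd38, Egfl7, Tspan18, Stap2, Ccl2, Robo4 and She. Without untreated replicate 2 the number was 7, without CDH5+ replicate 2 it was 3, and without either c-KIT+ array it was 6. No row passed limma's test of c-KIT+ against CDH5+ cells (0% of rows, lowest adjusted p 0.111). At an unadjusted p under 0.05, 42 of the 47 were lower in c-KIT+ cells, where 4.79% of all rows were. Just inside the limit of 1 lay Dock9 (1.02), Selp (1.05), Krtap19-9b (1.06), Il6 (1.08) and Trp53i11 (1.08), and just outside lay Bst2 (0.96), Gng11 (0.96), Serpinb9b (0.95), Plau (0.93) and Olfr156 (0.92). The boundary does not fall in a gap: 11 members had a height of 2 or more, and 48 genes met the other conditions with a smaller difference of 0.5 to 1.

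The comparison of c-KIT+ cells with untreated MEFs sets the day 12 level beside the starting level. The rule did not set these groups against each other, but it held their arrays below the CDH5+ arrays. Their values were therefore not free of the choice, and a gene that was not called is not shown to have returned. By limma 3 of the 47 were higher in c-KIT+ cells (6.38%), where 3.24% of all rows were, and 0 were lower, where 2.72% of all rows were. These shares are near the background and are not a result about the genes as a set. At an unadjusted p under 0.05, 7 were higher, where 11.2% of all rows were, and 7 were lower, where 9.85% of all rows were. Selp was 2.33 higher (standard error of the limma contrast 0.19, adjusted p = 0.00337), Ccl4 1.92 higher (adjusted p = 0.0262) and Car8 1.25 higher (adjusted p = 0.0389), each in 2 of 2 c-KIT+ arrays above both untreated arrays. Stap2 was 1.67 higher but missed the threshold by limma (adjusted p = 0.0569), as did Mest with a difference of -1.16 (adjusted p = 0.0697). Wfdc17 had the largest difference, 2.83, with a limma 95% interval from -2.29 to 7.95. Without c-KIT+ replicate 1 or 2 none of the genes passed, and without untreated replicate 2 there were 7, of which 3 were higher and 4 lower, where 11.5% of all rows passed in either direction. Car8 lost its call in 10 of 14 alternatives, with limma adjusted p-values over all 14 from 0.0203 to 0.255, among them quantile normalization (0.0565), the median of probe sets (0.0667) and the omission of untreated replicate 1 (0.0946) or 2 (0.0579). Ccl4 lost its call in 3 of 14, over a range from 0.00425 to 0.187, among them the omission of untreated replicate 1 (0.0851), and Selp in the 2 that left out a c-KIT+ array (0.0585 and 0.0609).

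The differences from untreated MEFs lay on both sides of 0. The c-KIT+ mean was above the untreated mean in 24 of the 47 genes (51.1%, against 54.8% of all rows) and below it in 23, with a median difference of 0.04, against 0.05 over all rows and 0.95 over the 13 genes left out by name. The differences ran from -1.21 in Tspan7 to 2.83 in Wfdc17, and 21 genes lay within 0.5 of 0. Both c-KIT+ arrays were above both untreated arrays in 14 genes (29.8%, against 28.6% of all rows) and below both in 12 (25.5%, against 22.9%). Without untreated replicate 2 the median was -0.23. Part of this rests on dim values: both untreated arrays were within background in 18 genes (38.3%, against 52.8% of all rows), both c-KIT+ arrays in 19 (40.4%, against 56.1%), and 10 genes were within background on all 4.

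**Figure D3:**
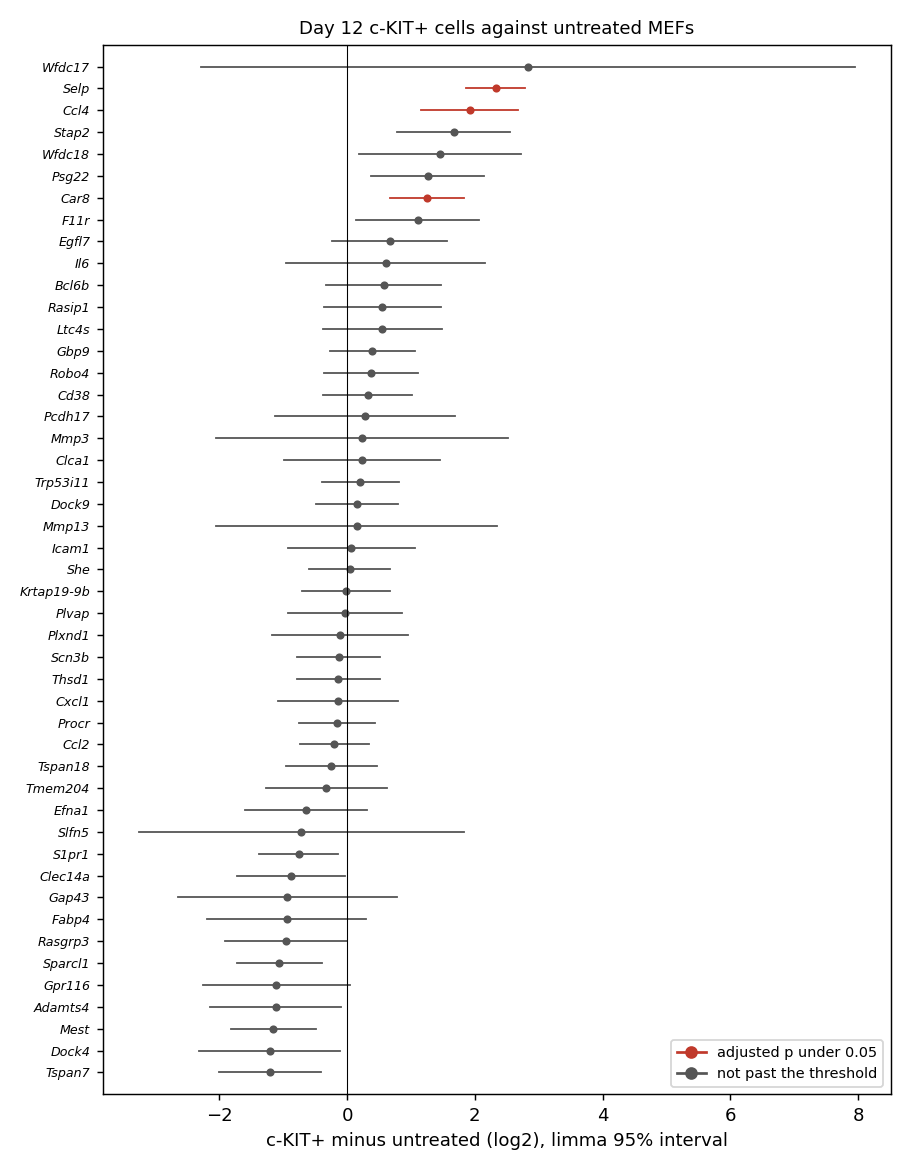
Difference between c-KIT+ cells and untreated MEFs (log2) for the 47 genes in descending order, with the limma 95% interval as a line and the genes past an adjusted p of 0.05 in red. Points fall on both sides of 0, and the red genes are Selp (2.33), Ccl4 (1.92) and Car8 (1.25).

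The 2 CDH5+ arrays did not carry the genes equally. In 36 of the 47 (76.6%) replicate 2 was above replicate 1, where 41.4% of all rows were, and the median difference was 0.56, against -0.08 over all rows. Of the 18 members in the endothelial lists 16 were higher on replicate 2, and all 13 genes left out by name were, with a median of 0.84. Pcdh17 had the widest gap in that direction, 1.77, followed by Gap43 (1.29), Plxnd1 (1.28) and Adamts4 (1.26). The 11 genes higher on replicate 1 were Mmp3 (-1.56), Clca1 (-1.50), Mmp13, Cxcl1, Slfn5, Sparcl1, Icam1, Clec14a, Wfdc18, Wfdc17 and Ccl2 (-0.04). Replicate 1 was also the array with the higher fibroblast median, 8.60 against 6.58, and the lower leukocyte median, 6.48 against 7.24, and the part of these differences in the gene values was not tested.

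**Figure D4:**
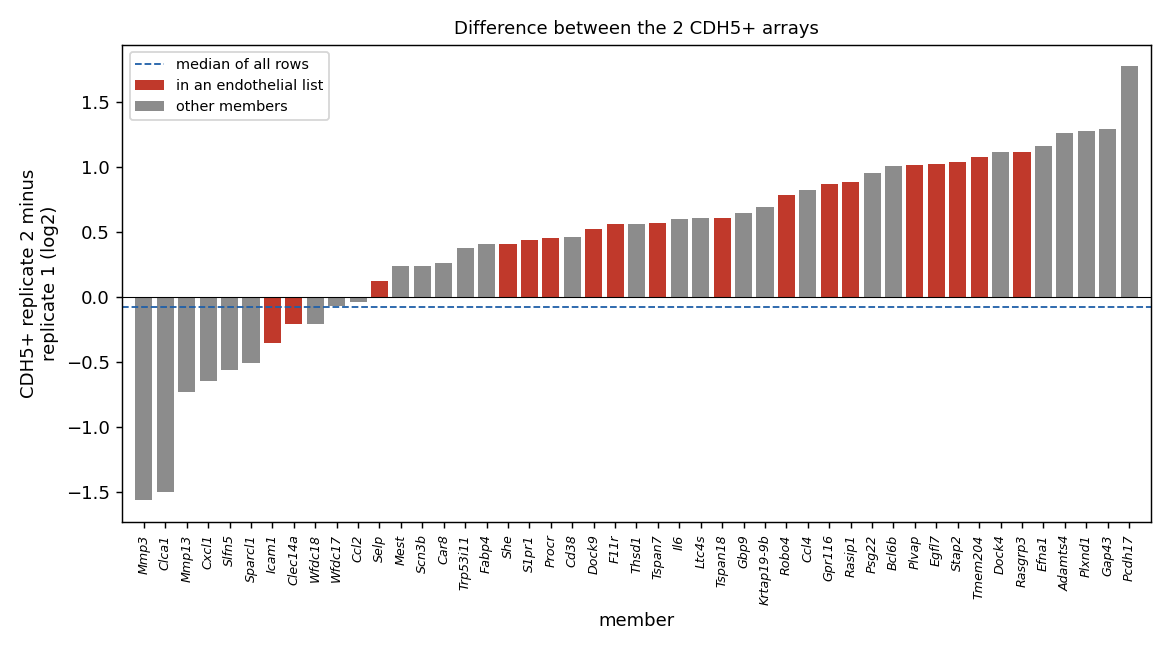
CDH5+ replicate 2 minus replicate 1 (log2) for the 47 genes in ascending order, with members of the endothelial lists in red, other members in grey and the median of all rows (-0.08) as a dashed line. Most bars are positive, from 0.13 in Selp to 1.77 in Pcdh17, and the negative end holds the matrix proteases Mmp3 and Mmp13 and the chemokine Cxcl1.

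Because the rule used both arrays, the peak was also read on arrays that did not choose it. With the differences of at least 1 and the level of 7 asked of the replicate 1 arrays alone, 48 genes passed, of which 23 are members. On the replicate 2 arrays CDH5+ was the highest group in 35 of the 48 (72.9%), against 10.8% of 4941 genes at that level, and the median height was 0.71. Chosen on replicate 2, 86 genes passed, of which 43 are members. On replicate 1 CDH5+ was the highest group in 74 of the 86 (86%), against 11.9% of 4390, with a median height of 0.70. On the arrays not used for the choice, 23 of the 48 and 34 of the 86 also reached the limit of 1, against 1.05% of all genes at that level in each case.

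Single probe sets are the parts from which a gene value is made, so they were not independent of the choice of genes and are given as a description. For 41 of the 47 genes there were 711 probe sets that list 1 gene symbol, 5 to 73 per gene, and 531 of them (74.7%) had both CDH5+ arrays above the other 4, as the choice favours. In 39 of the 41 genes at least 50% of the probe sets did so, and the exceptions were Plvap with 3 of 8 and Tmem204 with 2 of 5. No probe set listing 1 symbol was matched for Tspan7, Wfdc17, Wfdc18, Krtap19-9b, Cd38 and Gbp9. Of these Gbp9 and Krtap19-9b belong to families of similar genes, and their values could hold signal of a relative. Ccl4, Wfdc17 and Wfdc18 are neighbours on chromosome 11 in the RefSeq order of coding genes, Trp53i11 and Tspan18 are neighbours on chromosome 2, and 2 coding genes lie between Mmp13 and Mmp3 on chromosome 9.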

How the data were processed

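RNA of the 3 groups was hybridised to Mouse Exon 1.0 ST arrays, 2 per group. The authors deposited normalized log2 values for each of 26323 genes and 1236087 probe sets, without pooling. The sources used here do not name the normalization, its software or the annotation build. The paper's methods name limma, the 3 conditions and a false discovery rate of 5%. They call the arrays biological replicates, and since how the cultures were separated is not stated, p-values measure only the spread between these samples.

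Values were used as deposited. A mean per group was fitted to every row with limma 3.58.1 in R 4.3.3 over all 6 arrays, which leaves 3 residual degrees of freedom, with Benjamini-Hochberg adjustment over all rows. The number of arrays limits the precision. Levels of different genes were not compared. Named in the text are the 25 genes of greatest height, genes in a role list, genes past the test of c-KIT+ against untreated cells, and 5 on either side of the limit; the other members (Mest, Dock4, Wfdc18 and Clca1), named so that each of the 47 is accounted for, and list genes outside the rule were picked after their values were seen. The genes, the lists and the motifs were chosen with earlier results of these data known. Of the rows, 43 repeat a symbol, and 0 of the 47 genes are among them. The fit was tested on simulated data. There it called 0.8% of genes given a c-KIT+ minus untreated difference of 1 and 41.2% of those given 2. Each simulated set changed 200 of 26323 genes, whereas 5.96% of rows were called in the real comparison. The adjustment depends on how many genes change, so these rates are not the power of the real test. Alternatives were other normalizations, the median of a gene's probe sets, other limits, each array left out, a replicate block, a variance trend, robust variances, 4 arrays only and a filter on dim genes.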

Additional observations from a re-analysis of the deposited data

Results flagged for a closer look

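The rule kept to protein-coding genes, and 7 rows of other biotypes met its numeric limits, with a signal in CDH5+ cells above the untreated level. The CDH5+ means were 7.15 for the pseudogene Olfr1372-ps1, 9.53 for the lincRNA Gm20603, 7.69 for the microRNA row Mir351, 8.11 for BC046401, 9.27 for Gm13568, 7.81 for the pseudogene Gm7209 and 9.65 for the pseudogene Gm8825. Their untreated means were 4.06, 6.66, 5.64, 6.00, 8.22, 6.77 and 8.32. Mir351 read 6.34 and 4.93 in untreated MEFs, 7.11 and 8.28 in CDH5+ cells and 5.14 and 5.64 in c-KIT+ cells, so the CDH5+ arrays lay above the other 4. Which transcript the probe sets of this row read was not tested, and the mature strands were not measured. The mature sequences in RefSeq (chromosome X, minus strand, GRCm38.p6), with bases 2 to 8 in capitals, were as follows.
mmu-miR-351-5p: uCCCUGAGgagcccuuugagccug
mmu-miR-351-3p: gGUCAAGAggcgccugggaac
Groups of 2 arrays are too small for a search for outlying arrays within a group.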

How the results depend on the processing

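The count of 47 genes was 95 with a difference limit of 0.5 and 26 with 1.5, and 79 with a level floor of 6 and 20 with 8. With 1 array left out it ran from 44 to 81, and 26 to 46 of the 47 genes were found again. Quantile normalization gave 70 genes and the median of probe sets 40, of which 32 were among the 47. For c-KIT+ cells against untreated MEFs, the 3 calls were 5 with the median of probe sets and 5 without dim genes, and 0 to 7 with 1 array left out. For CDH5+ cells against untreated MEFs, the 14 calls were 3 to 12 with 1 array left out. The median c-KIT+ minus untreated difference ran from -0.227 to 0.116 with 1 array left out and was 0.14 with the median of probe sets. Genes chosen on replicate 2 were highest in CDH5+ cells on replicate 1 in 67.7% at a limit of 0.5 and in 95.9% at 1.5. The cause of these shifts was not tested beyond the looser or stricter limit, or the fewer arrays, that define them. Of 221 peak heights of the 25 genes under other settings none was below 0 and 5 were below 1.

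Over all rows, same-numbered arrays of different groups deviated together little (r of replicate 2 minus replicate 1 of 0.12, -0.02 and -0.05 between groups). In 52.8% of these rows both untreated arrays were within background, and the interferon list was lower on replicate 2 in both CDH5+ cells and untreated MEFs. These values cannot decide whether the number is a pairing. With the number as a replicate block, limma called 2 genes for c-KIT+ against untreated cells (Car8 was lost, adjusted p = 0.0577). It called 10 for CDH5+ against untreated cells and 0 for c-KIT+ against CDH5+ cells.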

Other observations

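Another 6 coding genes met the limits on means and level but had overlapping arrays. The mast cell proteases Mcpt1 and Mcpt2 read 9.33 and 6.62, and 9.53 and 5.96, in CDH5+ replicates 1 and 2, against 4.23 and 4.70, and 3.78 and 4.23, in untreated MEFs. Their overlap was with c-KIT+ cells, at 6.69 and 7.12 for Mcpt1 and 6.40 and 6.90 for Mcpt2. Serpina3n, a secreted protease inhibitor, read 10.34 and 5.70 in CDH5+ cells, against 9.26 and 4.40 in untreated MEFs, and Sepp1, the selenium carrier, 8.98 and 8.06, against 8.49 and 5.43. Ttc9 read 6.44 and 8.70 in CDH5+ cells, against 3.32 and 6.89 in untreated MEFs. Dcn, the matrix proteoglycan decorin, completed the set at 11.47 and 10.39 in CDH5+ cells, against 11.86 and 7.82 in untreated MEFs. In 5 of the 6 the first CDH5+ array was the higher.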
